A study of Mus musculus with 12 samples.

Results

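The cytosolic RNA sensors and the TBK1 kinases were examined as 8 genes chosen by symbol: Ddx58 (which encodes RIG-I), Ifih1 (MDA5), Dhx58 (LGP2), Mavs, Zbp1, Trim25, Tbk1 and Ikbke (IKKε). All 8 were among the 16920 genes of each count table, and all 8 were among the 12064 genes that passed the filter on low counts. The tables came from 12 RNA-seq libraries, made from peritoneal macrophages of the mouse in culture, and 4 groups held 3 libraries each. The groups were wild-type cells (WT) with PBS, WT cells with lipopolysaccharide (LPS, 1 µg/mL), cells labelled as Ythdf1 knockout (Ythdf1-/-, KO) with PBS, and KO-labelled cells with LPS, each after 6 h. Donor mice were young adults on the C57BL/6 background, the knockout had been made with CRISPR/Cas9 in the whole animal, and every group carried the same peritoneal elicitation and overnight culture. YTHDF1 is a reader protein of the mRNA mark N6-methyladenosine. The sources call the replicates independent samples and biological replicates. They do not name the mice behind each library, so the p-values measure the spread between these samples.

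RIG-I and MDA5 are helicases that bind double-stranded RNA in the cytosol, RIG-I preferring short ends with a triphosphate and MDA5 preferring long duplexes. Both signal through caspase recruitment domains to MAVS, an adaptor on the mitochondrial surface, whereas LGP2 lacks those domains and modulates both. TRIM25 is a ubiquitin ligase known for activating RIG-I, and ZBP1 binds Z-form nucleic acids and can start necroptosis through RIPK3. MAVS recruits TBK1 and IKKε, the kinases that phosphorylate IRF3 and IRF7 and so switch on type I interferon. In macrophages the same kinases also act below the LPS receptor, and interferon itself induces many genes of this pathway.

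Promoter sequence was available for 6 of the 8 genes, as RefSeq windows of 300 bases on build GRCm38.p6 that run from 250 bases before the annotated start to 50 after it. An interferon-stimulated response element core, spelled GAAANNGAAA and searched on both strands, was found in 2 of these 6 windows, against 1149 of all 32851 windows (3.5%). In Ddx58 it lay at bases 3 to 12 after the start and was read on the opposite strand. In Ifih1 it lay at bases 33 to 42 on the gene's own strand. The NF-κB consensus was found in 2785 windows (8.48%) and in 0 of the 6. The matches are shown because Ddx58 and Ifih1 were among the genes with the largest LPS responses below, and the capitals mark the matched bases. The Ddx58 window is chr4:40239804-40239833 and the Ifih1 window is chr2:62646206-62646233, both on the minus strand.
Ddx58: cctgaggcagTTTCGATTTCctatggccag
Ifih1: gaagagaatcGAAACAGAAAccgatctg

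Upstream sequence from base -150 to base -51 relative to the start is given for 3 further genes whose behaviour differed: Ikbke, which was lower under the KO label at rest, Tbk1, its partner kinase, which was not, and Mavs, which LPS lowered. Positions count from the start that each RefSeq window uses, which for Ikbke lies inside the outer bound of the gene given below, so that its stretch begins closer to that bound. No exon overlaps these stretches, and neither motif lies in them. Ikbke is chr1:131279614-131279713 on the minus strand, Tbk1 is chr10:121586845-121586944 on the minus strand, and Mavs is chr2:131233913-131234012 on the plus strand. A match, or its absence, describes letters in a window and not binding.
Ikbke: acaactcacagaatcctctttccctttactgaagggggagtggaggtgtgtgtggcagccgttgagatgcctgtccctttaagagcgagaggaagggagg
Tbk1: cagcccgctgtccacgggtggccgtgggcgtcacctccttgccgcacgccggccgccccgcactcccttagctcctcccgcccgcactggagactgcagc
Mavs: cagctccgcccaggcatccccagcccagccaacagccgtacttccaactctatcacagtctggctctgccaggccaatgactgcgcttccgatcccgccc

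The genes lie at separate loci (GRCm38, GENCODE annotation): Ddx58 (gene 230073) at chr4:40203773-40239828, Ifih1 (71586) at chr2:62595798-62646255, Dhx58 (80861) at chr11:100694884-100704271, Mavs (228607) at chr2:131234063-131248025, Zbp1 (58203) at chr2:173206612-173218923, Trim25 (217069) at chr11:88999376-89020293, Tbk1 (56480) at chr10:121546455-121586787 and Ikbke (56489) at chr1:131254343-131279606. Mavs and Trim25 are on the plus strand and the others on the minus strand. Antisense genes share 4.31% of the exonic bases of Dhx58 and 2.48% of those of Ikbke. Whether counting used strand is not given in the sources used here, so reads in those bases cannot be assigned to either gene. The deposited estimates carried decimals in 12 libraries for Trim25, 9 for Ddx58 and 9 for Tbk1, and in none for the others.

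Total counts lay between 21546274 and 22017005 per library, and the lowest count of any of the 8 genes was 210, for Mavs. WT LPS replicate 1 stood apart from the other libraries of its group, with a chi-square per gene that averaged 32.7 and 25.5 against replicates 2 and 3, beside 3.08 between those 2. The KO-labelled LPS libraries also differed, by 16.7 between replicates 2 and 3 and by 7.43 and 5.83 in the other pairs, and the PBS pairs lay between 2.77 and 4.68. Ythdf1 mRNA was not lost in the KO-labelled libraries: it was at 41.9 to 45.0 CPM in WT PBS, 55.4 to 58.1 in KO-labelled PBS, 194 to 212 in WT LPS and 192 to 205 in KO-labelled LPS. A sum over a whole gene does not show a small deletion, so these values do not check the label, and "KO-labelled" is used for that reason. All 8 macrophage markers, among them Adgre1, Csf1r, Cd68 and Lyz2, were above 3 counts in 12 of 12 libraries. Of the neutrophil, T cell and mast cell markers measured, only Camp exceeded 3 counts in any library, and it did so in the 6 LPS libraries. The 4 B cell markers summed to 1.61 to 1.92 CPM in WT PBS and 0.405 to 0.564 in WT LPS, and to 1.19 to 1.86 and 0.187 to 0.673 in KO-labelled cells, with Cd79b above 3 counts in 9 libraries and Cd79a in 7. 3 marker lists had lower sums under the KO label, with the muscle ranges overlapping at rest. The summed level of the 5 fibroblast markers was 75.1 to 88.6 CPM in WT PBS and 32.9 to 46.2 in KO-labelled PBS, and 118 to 132 in WT LPS and 57.0 to 69.5 in KO-labelled LPS. That of the 6 skeletal muscle markers was 20.9 to 26.7, 3.68 to 23.6, 30.7 to 35.9 and 1.29 to 2.18 CPM in the same order. That of the 5 mesothelium markers was 6.05 to 6.93, 2.80 to 4.94, 6.99 to 8.03 and 5.08 to 6.53 CPM. The part of these cells in any difference by label was not tested.

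The first question was how the pathway responded to LPS. In WT cells, 7 of the 8 genes rose and Mavs fell, and the KO-labelled cells gave the same 7 and the same 1. Levels are normalised read counts as CPM, that is, counts brought to a common library total after scaling by the trimmed mean of M values, and means are given with their SD (n = 3 libraries). In bulk RNA, more cells of a type and more RNA per cell cannot be told apart. For all 8 genes the LPS and PBS libraries did not overlap, in WT as in KO-labelled cells. Across all genes tested, 36.5% were called higher and 40.2% lower with LPS in WT cells, and 38.8% and 41.1% in KO-labelled cells. Groups free of overlap made up 78.2% and 81.3%. The median log2 fold change of the 8 genes was 3.02 in WT and 3.62 in KO-labelled cells, beside -0.05 and -0.04 over all genes tested.

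**Figure D1:**
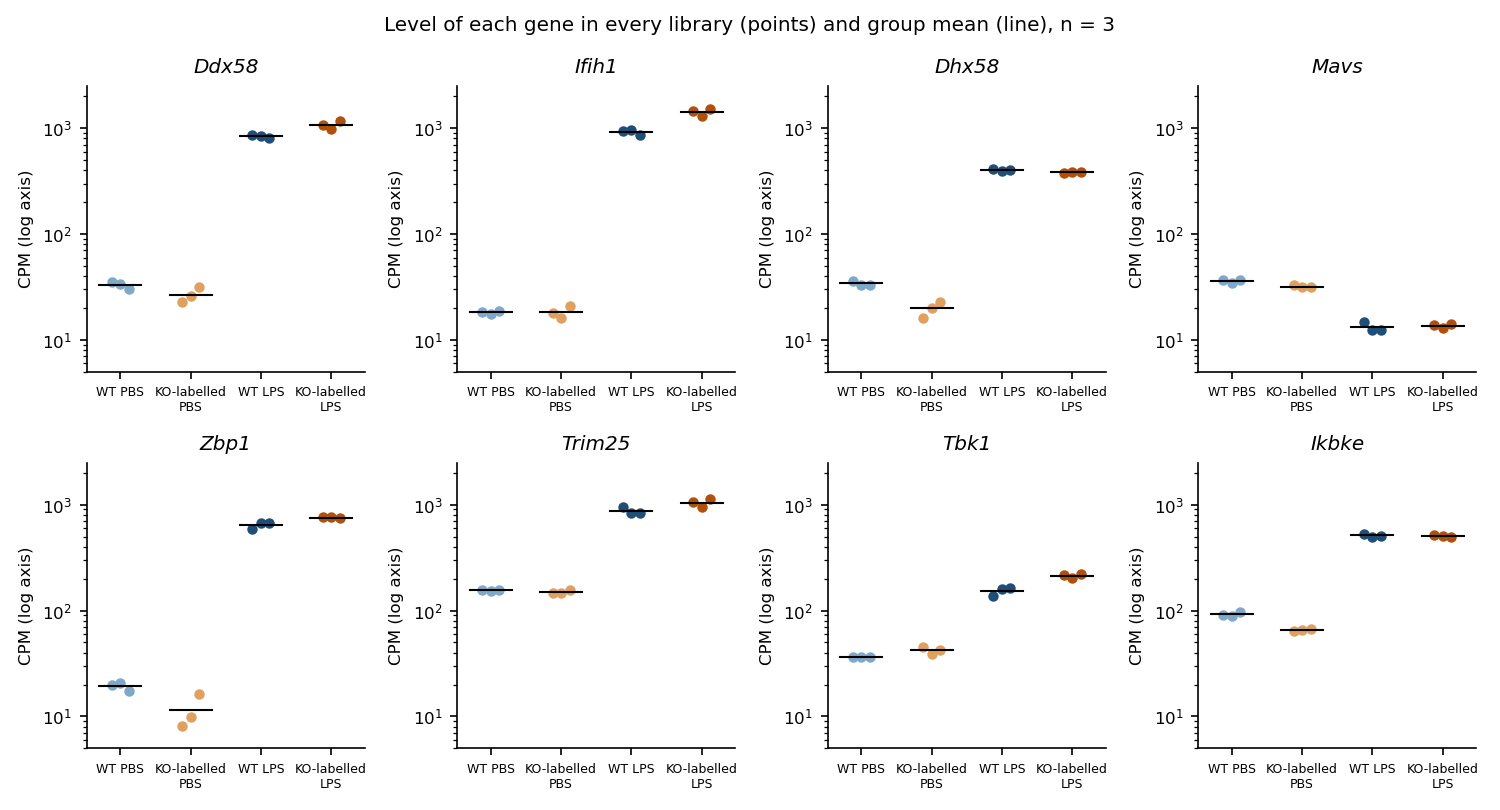
Level of each gene in every library, in CPM on a log axis, by group; points are libraries and lines are group means (n = 3). LPS libraries lie above PBS libraries for every gene except Mavs, where they lie below, and the KO-labelled LPS libraries of Ifih1 (1307 to 1520 CPM) lie above the WT LPS libraries (867 to 950 CPM).

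Among the receptors, Ifih1 had the largest LPS response. It was at 18.5, 17.5 and 18.6 CPM in the WT PBS libraries and at 943, 950 and 867 CPM in the WT LPS libraries. The KO-labelled libraries held 18.0, 16.2 and 20.9 CPM with PBS and 1452, 1307 and 1520 CPM with LPS. With PBS the labels overlapped, and with LPS every KO-labelled library was above every WT library. The rise was 50.6-fold in WT (log2 5.66 ± 0.10 SE, adjusted p = 7.65e-18) and 77.7-fold in KO-labelled cells (log2 6.28 ± 0.10, adjusted p = 2.78e-18).

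Ddx58 was at 35.6, 33.9 and 30.3 CPM in WT PBS, and at 857, 847 and 802 CPM in WT LPS. KO-labelled cells held 22.9, 25.9 and 31.6 CPM with PBS and 1080, 989 and 1156 CPM with LPS. The KO-labelled libraries thus began at or under the WT level and ended above it, and the ranges overlapped at rest but not after LPS. Ddx58 rose 25.1-fold in WT (log2 4.65 ± 0.11) and 40.1-fold in KO-labelled cells (log2 5.32 ± 0.11), with adjusted p = 5.73e-16 and 1.24e-16.

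Dhx58, the receptor without signalling domains, gave the smallest rise of the 3 receptors. It was at 36.3, 33.2 and 33.0 CPM in WT PBS and at 412, 396 and 406 CPM in WT LPS. In KO-labelled cells it was at 16.2, 20.2 and 23.1 CPM with PBS and at 380, 386 and 389 CPM with LPS. Here the gap between labels lay at rest, where no KO-labelled library reached a WT library, and it had nearly closed after LPS. The rise was 11.8-fold in WT (log2 3.57 ± 0.09, adjusted p = 1.09e-15) and 19.4-fold in KO-labelled cells (log2 4.28 ± 0.10, adjusted p = 1.42e-16).

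Zbp1, the sensor of Z-form nucleic acids, was at 19.9, 20.6 and 17.3 CPM in WT PBS and at 585, 666 and 666 CPM in WT LPS. It was at 8.09, 9.93 and 16.3 CPM in KO-labelled PBS and at 758, 762 and 740 CPM in KO-labelled LPS. The KO-labelled PBS group had the largest coefficient of variation of any gene and group here, 37.5%, with replicate 3 well above the other 2 libraries. Every KO-labelled library was below every WT library with PBS and above every WT library with LPS. With LPS the difference between labels did not pass the threshold (log2 0.24, 95% interval -0.11 to 0.59). Zbp1 rose 33.1-fold in WT (log2 5.05 ± 0.19, adjusted p = 1.67e-10) and 65.9-fold in KO-labelled cells (log2 6.04 ± 0.21, adjusted p = 4.18e-11).

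Trim25, the ubiquitin ligase, was at 157, 155 and 158 CPM in WT PBS and 146, 145 and 156 CPM in KO-labelled PBS. LPS brought it to 959, 830 and 831 CPM in WT and to 1049, 940 and 1120 CPM in KO-labelled cells. The labels overlapped under both treatments, and with LPS only WT replicate 1 reached the KO-labelled range. The rise was 5.58-fold in WT (log2 2.48 ± 0.07, adjusted p = 8.69e-15) and 6.94-fold in KO-labelled cells (log2 2.80 ± 0.08, adjusted p = 1.75e-15).

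Mavs, the adaptor that both receptors signal through, was the only gene of the 8 that fell. It was at 37.2, 34.8 and 36.9 CPM in WT PBS and at 14.9, 12.4 and 12.5 CPM in WT LPS. In KO-labelled cells it was at 32.8, 31.3 and 31.4 CPM with PBS and at 13.9, 12.9 and 14.1 CPM with LPS. All 6 LPS libraries were therefore under 15 CPM, and the labels overlapped there. Mavs fell by 1.45 on the log2 scale in WT (SE 0.08, adjusted p = 1.63e-11) and by 1.23 in KO-labelled cells (SE 0.08, adjusted p = 1.63e-10).

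Both kinases rose. Ikbke was at 90.1, 89.2 and 96.4 CPM in WT PBS and at 534, 494 and 507 CPM in WT LPS. In KO-labelled cells it was at 63.8, 65.0 and 66.9 CPM with PBS and at 516, 511 and 496 CPM with LPS. The KO-labelled libraries were all lower at rest, while with LPS the labels overlapped. Ikbke rose 5.57-fold in WT (log2 2.48 ± 0.06, adjusted p = 2.25e-16) and 7.79-fold in KO-labelled cells (log2 2.96 ± 0.06, adjusted p = 2.71e-17).

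Tbk1 was the steadiest gene at rest in WT, at 36.5, 36.6 and 36.7 CPM, and reached 137, 159 and 163 CPM with LPS. In KO-labelled cells it was at 45.5, 38.6 and 42.8 CPM with PBS and at 218, 204 and 220 CPM with LPS. Every KO-labelled library was above every WT library under both treatments, the reverse of the order of Ikbke at rest. The Tbk1 difference at rest did not pass the threshold (log2 0.21, 95% interval 0.05 to 0.37), whereas that of Ikbke did. Tbk1 rose 4.18-fold in WT (log2 2.06 ± 0.08, adjusted p = 1.21e-13) and 5.06-fold in KO-labelled cells (log2 2.34 ± 0.08, adjusted p = 1.90e-14). The calls and directions of all 8 LPS responses held in all 20 alternative fits for each label, including the one without WT LPS replicate 1, in which the WT responses lay between -1.54 for Mavs and 5.64 for Ifih1. The sizes depend on the scaling, and with library totals alone each fold moved by over 1.5 times. The log2 responses in WT were then 4.996 for Ifih1, 3.99 for Ddx58, 2.90 for Dhx58, 4.39 for Zbp1, 1.82 for Trim25, -2.12 for Mavs, 1.81 for Ikbke and 1.40 for Tbk1. In KO-labelled cells they were 5.48, 4.52, 3.48, 5.24, 1.99, -2.03, 2.16 and 1.54 in the same gene order.

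The next question was whether the label altered these genes in resting cells. With PBS, 5 of the 8 genes were lower in KO-labelled than in WT cells (Dhx58, Zbp1, Ikbke, Ddx58 and Mavs) and 0 were higher. Of all genes tested, 13% were called lower and 12.3% higher in this comparison. The levels of 5 of the 8 genes, namely Dhx58, Zbp1, Ikbke, Mavs and Tbk1, did not overlap between labels, beside 48.1% of all genes. The median log2 fold change was -0.25 for the 8 genes and 0.00 over all genes tested. Dhx58 was 1.72-fold lower (log2 -0.79 ± 0.09, adjusted p = 1.39e-05), Ikbke 1.41-fold lower (log2 -0.49 ± 0.06, adjusted p = 8.58e-06) and Zbp1 1.69-fold lower (log2 -0.76 ± 0.19, adjusted p = 0.0147). Ddx58 was 1.24-fold lower (log2 -0.31 ± 0.10, adjusted p = 0.0330) and Mavs 1.14-fold lower (log2 -0.19 ± 0.07, adjusted p = 0.0494). Tbk1 stood 1.15-fold higher without passing the threshold (log2 0.21, 95% interval 0.05 to 0.37, adjusted p = 0.0548). Ifih1 (log2 0.01, interval -0.18 to 0.20) and Trim25 (log2 -0.07, interval -0.22 to 0.08) did not pass either. The summed fibroblast markers were also lower in KO-labelled PBS (32.9 to 46.2 CPM) than in WT PBS (75.1 to 88.6), and their part in these differences was not tested.

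The calls on Dhx58 and Ikbke held in all 20 alternative fits. That on Ddx58 was lost when replicate 1 (log2 -0.23) or 2 (-0.30) of WT PBS, or replicate 1 (-0.18) or 2 (-0.26) of KO PBS, was left out, with adjusted p from 0.0900 to 0.231, and also with library totals alone (-0.26, adjusted p = 0.0543) and in a fit to the 2 groups compared (-0.31, adjusted p = 0.113). That on Zbp1 was lost without WT PBS replicate 1 (-0.70, adjusted p = 0.0540) or KO PBS replicate 2 (-0.64, adjusted p = 0.0617), and in a fit to the 2 groups compared (-0.76, adjusted p = 0.115). That on Mavs was lost without any single one of 9 libraries, the exceptions being WT LPS replicates 1 and 2 and KO LPS replicate 2 (-0.22 to -0.14 over the 12 fits, adjusted p = 0.0514 to 0.232 where lost). It was also lost with RLE scaling (-0.17, adjusted p = 0.0752), DESeq2 (-0.17, adjusted p = 0.0754), no filter (-0.19, adjusted p = 0.0770) and library totals alone (-0.14, adjusted p = 0.120), so that it held in 7 of 20 alternative fits. Tbk1 passed the threshold without WT LPS replicate 1 (0.21, adjusted p = 0.0114) or KO PBS replicate 2 (0.29, adjusted p = 0.0201), and with RLE scaling, library totals alone, DESeq2 or a fit to the 2 groups compared (0.21 to 0.26, adjusted p = 0.00336 to 0.0379).

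After LPS the picture by label was different. Ifih1, Tbk1, Ddx58 and Trim25 were higher in KO-labelled than in WT cells, 4 of the 8 genes, and 0 were lower. Of all genes tested, 22.1% were called higher and 19.3% lower. The levels of 5 of the 8 genes, namely Ddx58, Ifih1, Dhx58, Zbp1 and Tbk1, did not overlap between labels, beside 45.6% of all genes. The median log2 fold change was 0.24 for the 8 genes and 0.00 over all genes tested. Ifih1 was 1.55-fold higher (log2 0.63 ± 0.08, adjusted p = 9.80e-06), Tbk1 1.40-fold higher (log2 0.48 ± 0.07, adjusted p = 6.30e-05), Ddx58 1.29-fold higher (log2 0.36 ± 0.09, adjusted p = 0.00445) and Trim25 1.19-fold higher (log2 0.25 ± 0.07, adjusted p = 0.0105). Of the 5 genes that had been lower at rest, Ddx58 was now higher, and the other 4 did not pass the threshold. Dhx58 was at log2 -0.07 (95% interval -0.24 to 0.10), Ikbke at -0.01 (-0.12 to 0.10), Mavs at 0.04 (-0.15 to 0.22) and Zbp1 at 0.24 (-0.11 to 0.59). The fibroblast markers were lower in the KO-labelled LPS libraries (57.0 to 69.5 CPM) than in WT LPS (118 to 132), and their part was not tested.

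Without WT LPS replicate 1, the library that stood apart, the same 4 genes were called higher, with Ifih1 at log2 0.65, Tbk1 at 0.41, Ddx58 at 0.38 and Trim25 at 0.32. The Trim25 call was lost when replicate 3 of WT LPS (0.21, adjusted p = 0.0515) or of KO LPS (0.19, adjusted p = 0.0579) was left out and under scaling by library totals alone (0.16, adjusted p = 0.0625), while Zbp1 passed without KO PBS replicate 3 (0.23, adjusted p = 0.0238) and in a fit to the 2 groups compared (0.22, adjusted p = 0.0471).

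**Figure D2:**
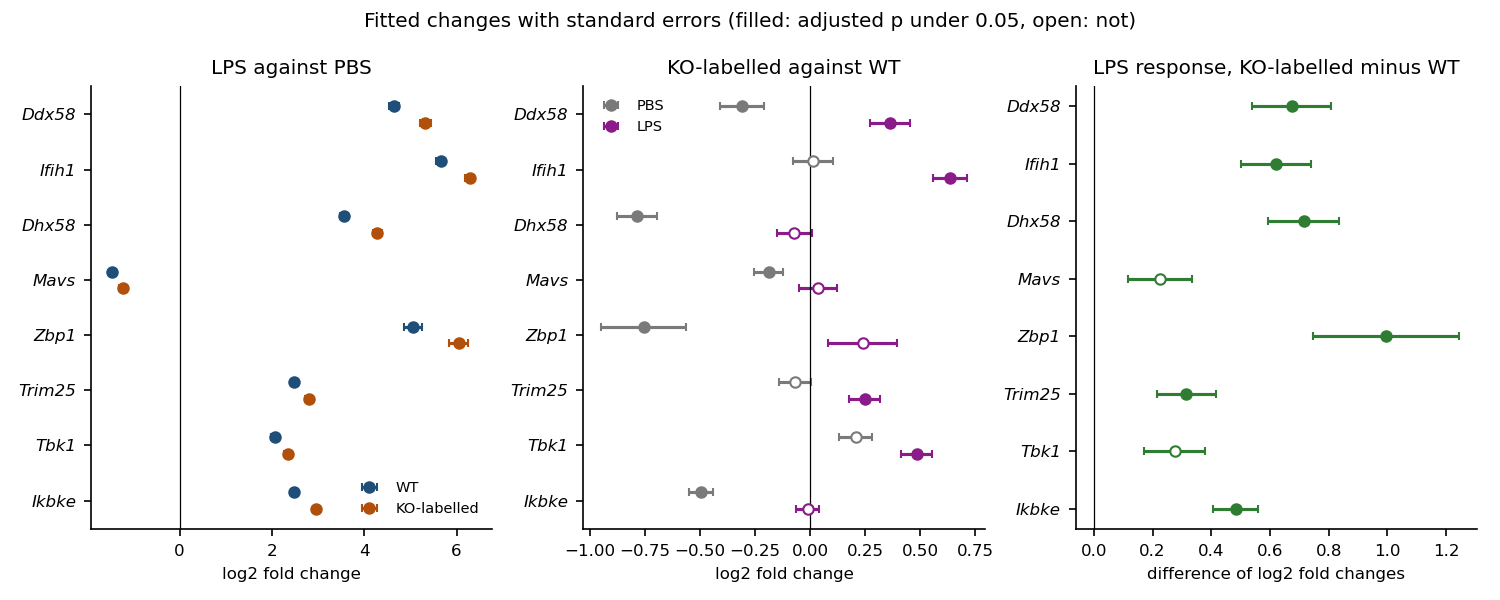
Fitted log2 fold changes with standard errors for LPS against PBS (left), KO-labelled against WT (middle), and the difference between the 2 LPS responses (right); filled points passed an adjusted p of 0.05. In the middle panel the filled PBS points lie between -0.79 and -0.19 and the filled LPS points between 0.25 and 0.63.

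The difference between the LPS responses was then tested directly as the interaction of label and treatment. It uses the same 12 libraries as the comparisons above and is not independent of them. For 6 of the 8 genes the rise with LPS was larger in KO-labelled cells, beside 9.78% of all genes called in that direction and 8.26% in the other. None of the 8 was called in the other direction. The median was 0.55 on the log2 scale for the 8 genes and 0.01 over all genes tested. The difference was largest for Zbp1 (0.99 ± 0.25, adjusted p = 0.0186), followed by Dhx58 (0.71 ± 0.12, adjusted p = 0.000808), Ddx58 (0.67 ± 0.14, adjusted p = 0.00283), Ifih1 (0.62 ± 0.12, adjusted p = 0.00182), Ikbke (0.48 ± 0.08, adjusted p = 0.000416) and Trim25 (0.32 ± 0.10, adjusted p = 0.0403). Tbk1 (0.28, 95% interval 0.06 to 0.50, adjusted p = 0.0784) and Mavs (0.22, interval -0.01 to 0.46, adjusted p = 0.175) did not pass. Among these 6, Dhx58, Zbp1 and Ikbke were called lower at rest, Ifih1 and Trim25 were called higher after LPS, and Ddx58 was called in both.

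The Trim25 interaction was the least steady, since it passed only when WT LPS replicate 1 (0.39) or else KO LPS replicate 2 was left out among the 12 fits that left a library out, with adjusted p between 0.0502 and 0.133 in the other 10 (0.26 to 0.33). It was also lost with RLE scaling (0.30, adjusted p = 0.0574) and library totals alone (0.18, adjusted p = 0.197). The Zbp1 interaction was lost without KO PBS replicate 2 (0.87, adjusted p = 0.0578) and with no filter (0.99, adjusted p = 0.0512), and that of Mavs passed without WT LPS replicate 1 (0.31, adjusted p = 0.0350).

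Ratios of 2 genes within a library do not depend on how libraries are scaled, so they were used to compare partners. Each gene's counts were divided by its exonic length in kb first. Ikbke over Tbk1 was 1.09 ± 0.04 in WT PBS and 0.67 ± 0.06 in KO-labelled PBS. With LPS it was 1.46 ± 0.19 in WT, where replicate 1 gave 1.68 and the other 2 libraries 1.35 each, and 1.03 ± 0.06 in KO-labelled cells. The ratio was thus lower under the KO label with both treatments and higher after LPS with both labels.

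The receptors also shifted against each other. Ifih1 over Ddx58 was 0.48 ± 0.05 in WT PBS and 0.60 ± 0.07 in KO-labelled PBS, and 0.95 ± 0.02 and 1.15 ± 0.01 after LPS. Dhx58 over Ifih1 was 4.69 ± 0.24 and 2.71 ± 0.43 at rest, and 1.10 ± 0.06 and 0.68 ± 0.05 after LPS. By these lengths, Dhx58 thus went from the largest share of the 3 at rest to the smallest after LPS in KO-labelled cells. By the longest transcript, Dhx58 in WT LPS (167.8 CPM per kb) was also below Ddx58 (215.6) and level with Ifih1 (168.2). Ddx58 over Mavs, receptor over adaptor, went from 0.44 ± 0.04 to 30.0 ± 2.54 in WT and from 0.40 ± 0.07 to 37.5 ± 1.35 in KO-labelled cells. The size of a ratio depends on the lengths used, whereas its relative change between groups does not. By the longest transcript, Ddx58 (277.5 CPM per kb) stood above Ifih1 (260.8) in KO-labelled LPS. In WT and KO-labelled cells, Dhx58 over Ddx58 was 2.22 ± 0.12 and 1.59 ± 0.08 at rest, and 1.04 ± 0.04 and 0.775 ± 0.06 after LPS. Of 20 such comparisons (5 ratios in 4 contrasts), 19 were free of overlap, the exception being Ddx58 over Mavs between labels at rest. The 5 ratios share genes and so are not independent, and the share over other pairs of genes was not computed. Of all single genes tested, 78.2% (WT) and 81.3% (KO-labelled) were free of overlap by LPS, and 48.1% (PBS) and 45.6% (LPS) by label. With 3 libraries against 3, the smallest two-sided p an exact permutation test allows is 0.1, which each of the 19 reached (adjusted p = 0.105 over the 20).

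**Figure D3:**
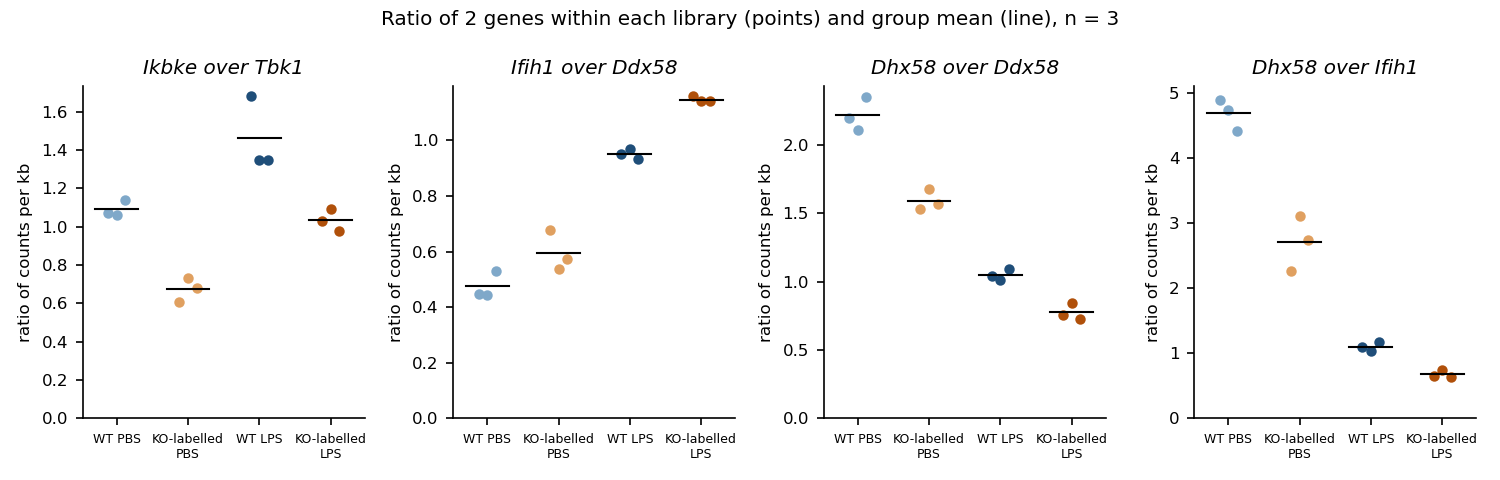
Ratio of counts per kb of 2 genes within each library, on a linear axis from 0, by group; points are libraries and lines are means (n = 3). Ikbke over Tbk1 is lower in KO-labelled libraries under both treatments (0.608 to 0.730 against 1.06 to 1.14 with PBS). Dhx58 over Ifih1 is 4.42 to 4.90 in WT PBS and 1.04 to 1.17 in WT LPS. In KO-labelled libraries it is 2.26 to 3.11 with PBS and 0.639 to 0.736 with LPS.

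Levels can be ordered between genes only per length, so CPM was divided by exonic length. In WT PBS, Trim25 led with 27.2 ± 0.30 CPM per kb, followed by Mavs (10.9 ± 0.39), Dhx58 (10.5 ± 0.57), Ikbke (10.2 ± 0.44) and Tbk1 (9.37 ± 0.03). The ranges of Mavs, Dhx58 and Ikbke overlapped as neighbours in that order. Zbp1 (5.47 ± 0.49) and Ddx58 (4.72 ± 0.39) overlapped too, and Ifih1 was lowest (2.23 ± 0.08). After LPS the order in WT was Zbp1 (181 ± 13.2), Trim25 (152 ± 12.9), Dhx58 (124 ± 2.43), Ddx58 (119 ± 4.16) and Ifih1 (113 ± 5.66), then Ikbke (56.7 ± 2.22), Tbk1 (39.2 ± 3.53) and Mavs (3.97 ± 0.41). Zbp1 and Trim25 overlapped, as did Dhx58 and Ddx58, and Ddx58 and Ifih1. Mavs thus came last after LPS. In KO-labelled LPS libraries, Ifih1 (175 ± 13.3) and Ddx58 (152 ± 11.9) stood above Dhx58 (118 ± 1.38), and Ikbke (56.3 ± 1.17) overlapped Tbk1 (54.7 ± 2.32). The order depends on the length used: by the longest transcript in place of all exons, Ddx58 would lead in WT LPS with 216 CPM per kb beside 192 for Zbp1, and Mavs in WT PBS (11.9) would stand below Ikbke (15.7), Dhx58 (14.2) and Tbk1 (12.1). Together the 8 genes held 0.0534% to 0.0543% of all counts in WT PBS, 0.0462% to 0.0509% in KO-labelled PBS, 0.343% to 0.352% in WT LPS and 0.386% to 0.421% in KO-labelled LPS.

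To place the 8 genes in their pathway, 47 further genes in 5 lists were read from the same fit, of which 46 were tested (Mx1 was not analysed here). Like the 8 genes, the lists were chosen with earlier results of these data known, so their counts describe the lists and are not independent support. With LPS, 34 rose and 6 fell in WT and 36 rose and 5 fell in KO-labelled cells. Under the KO label, 5 were higher and 15 lower at rest, and 23 higher and 4 lower after LPS. The interaction was called in 17 toward a larger rise in KO-labelled cells and in 2 the other way. Shares of all genes tested are those given above for each comparison.

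Of the 8 RLR cofactors and regulators, 5 rose and 2 fell with LPS in WT (median log2 0.67). Ddx60, a helicase linked to RIG-I signalling, rose by 4.89 and Rnf135, a ubiquitin ligase of RIG-I, by 3.17 on the log2 scale. Nlrx1, a mitochondrial protein known as a negative regulator of MAVS signalling, fell by 1.74. Under the KO label after LPS, 4 were higher and 1 lower (median 0.28). Nlrx1 was lower (log2 -0.86, adjusted p = 0.00123), while Ddx60 was higher by 0.56 (adjusted p = 0.000606) and Itch, a ubiquitin ligase that can degrade MAVS, by 0.34 (adjusted p = 0.000895). At rest 1 of the 8 was lower and 0 were higher (median 0.02).

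Of the 9 partners of the MAVS and TBK1 complexes, 8 rose and 0 fell with LPS in WT (median log2 0.35). The TBK1 adaptors Tank (3.06) and Azi2 (2.82) and the ubiquitin ligase Traf2 (2.85) rose most. After LPS 5 were higher and 1 lower under the KO label (median 0.29), with Ikbkg, the regulatory subunit of the IKK complex, at 0.56 (adjusted p = 2.09e-06), Traf6 at 0.55 (adjusted p = 6.67e-06) and Azi2 at 0.53 (adjusted p = 2.89e-06). At rest 3 were higher and 1 lower (median 0.04).

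In the ZBP1 cell death arm with Adar, 3 of 6 genes rose and 2 fell with LPS in WT (median log2 0.97). Mlkl, the executioner of necroptosis, rose by 3.94, Adar, the editor of double-stranded RNA, by 2.90 and Casp8 by 1.91. Under the KO label after LPS 3 were higher and 1 lower (median 0.15). Mlkl was higher by 0.49 (adjusted p = 1.14e-05) and Casp8 by 0.37 (adjusted p = 0.000714), whereas Ripk3, the kinase that ZBP1 engages, was lower (log2 -0.54, adjusted p = 0.000234). Ripk3 was also lower at rest (log2 -0.54, adjusted p = 0.000125), and 2 of the 6 were lower there in all (median -0.11).

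Of the 13 other nucleic acid sensors and adaptors, 9 rose and 2 fell with LPS in WT (median log2 2.34), led by Oasl1 (7.01), Tlr3 (5.05) and Oas3 (4.28). After LPS 7 were higher and 1 lower under the KO label (median 0.21). Oas2 was higher by 0.72 (adjusted p = 1.39e-05) and Eif2ak2, which encodes the kinase PKR, by 0.64 (adjusted p = 4.99e-06). Sting1, the adaptor of the cytosolic DNA sensor cGAS, was lower (log2 -0.93, adjusted p = 5.91e-08), with means of 24.4 CPM against 46.6 in WT. At rest 2 were higher and 4 lower (median -0.08).

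Among the 10 tested IRF factors and interferon outputs, 9 rose and 0 fell with LPS in WT (median log2 7.96, also with Ifnb1 at its lower bound), led by Cxcl10 (12.01), Rsad2 (9.13) and Ccl5 (8.90). Ifnb1 itself had 0 counts in all 6 PBS libraries, 8 to 16 counts in the WT LPS libraries and 14 to 15 in the KO-labelled LPS libraries, which is at least 6.52-fold and 8.56-fold higher than with PBS, taken at the floor of 3 counts per library. At rest 7 of the 10 were lower under the KO label and 0 higher (median -0.69 without Ifnb1). After LPS 4 were higher and 0 lower (median 0.37 without Ifnb1), with Ifit1 at 0.52 (adjusted p = 0.00385), Ccl5 at 0.47 (adjusted p = 0.00540) and Ifit3 at 0.40 (adjusted p = 0.0170). The medians of all 5 lists were above 0 after LPS, and those of this list, the ZBP1 arm and the other sensors were below 0 at rest.

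**Figure D4:**
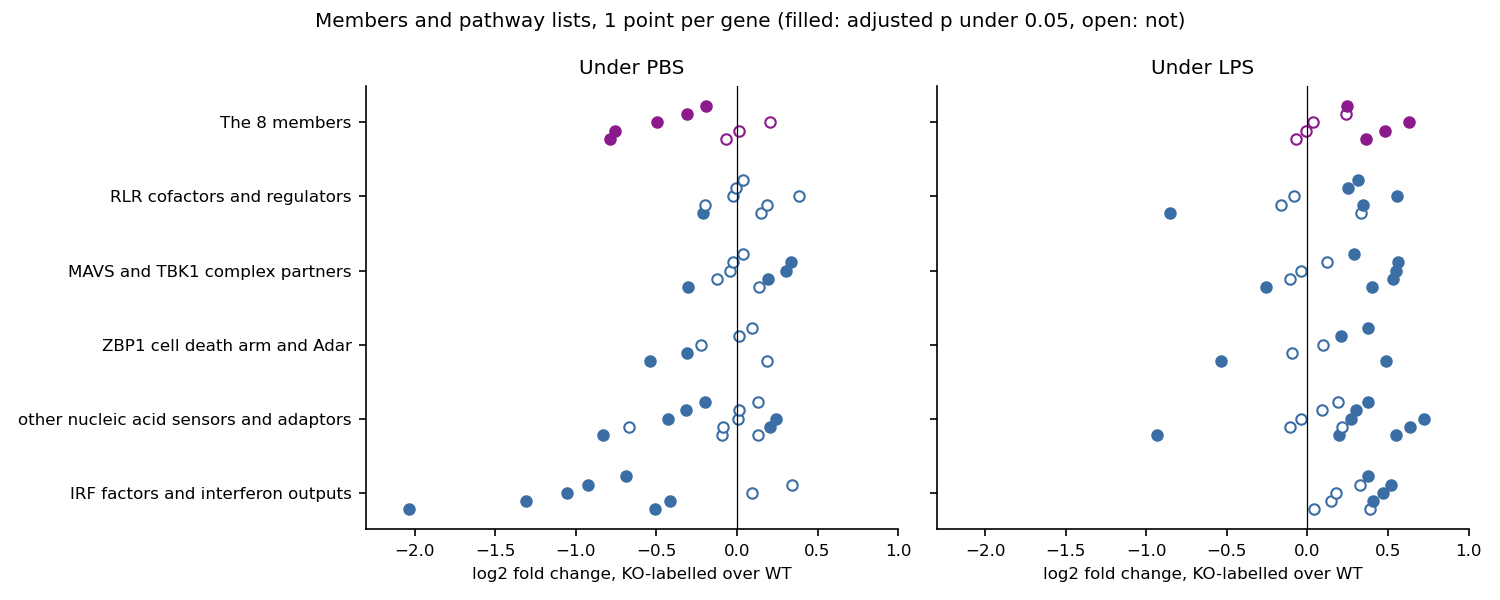
Log2 fold change of KO-labelled over WT cells with PBS (left) and LPS (right), 1 point per gene, for the 8 genes and the 5 pathway lists; filled points passed an adjusted p of 0.05, and Ifnb1 is not drawn. With PBS the filled points of the 8 genes are all below 0 and with LPS all above 0, and 7 interferon list genes are filled below 0 with PBS.

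The genes most like each of the 8 were sought by the distance between centred log2 CPM profiles over the 12 libraries, among 8715 other genes whose mean reached 5 CPM. All these profiles share the step between PBS and LPS, so Pearson's r was 0.993 or more for every neighbour and only the distance tells them apart. Tbk1 had the closest neighbour, Ppp4r2 (distance 0.22 log2 units), ahead of Rbm43 (0.25) and Ifi207 (0.28). Mavs was nearest to Vkorc1l1 (0.25) and Trim25 to Sec24b (0.25). Ikbke was nearest to Lrp11 (0.30), Dhx58 to the chemokine gene Cxcl16 (0.42), Ddx58 to Rnd3 (0.49) and Ifih1 to Ifi209 (0.59). Zbp1 had the most distant nearest neighbour, Ifi211 (0.86). Among the 8 genes themselves, the closest pair was Trim25 and Ikbke (0.67), then Trim25 and Tbk1 (0.97) and Ddx58 and Zbp1 (1.28). Tbk1 and Ikbke were 1.43 apart, and Mavs was at least 6.18 from every other gene.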

How the data were processed

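Total RNA was sequenced on a BGISEQ-500 with single-end reads. The authors deposited an estimated count for each gene and library, without scaling between libraries. The submitters' processing notes name Bowtie2, RSEM 1.3.1 and GRCm38.p6, whereas the study's methods name STAR and HTSeq. Decimals were present in 24.6% to 26.9% of the genes of a library; an RSEM estimate has them where reads are divided among genes. For elicitation, starch broth is given in the series record and thioglycollate in the study's methods.

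Counts were rounded, filtered with filterByExpr on the 4 groups and scaled by the trimmed mean of M values. They were tested in R 4.3.3 with the robust quasi-likelihood model of edgeR 4.0.16, with 1 mean per group over all 12 libraries, 5 contrasts, two-sided p-values and Benjamini-Hochberg adjustment over all 12064 genes at a threshold of 0.05. Intervals are 95% and use the moderated degrees of freedom. The comparisons share libraries: each group enters 2 pairwise contrasts. The pipeline was tested on simulated data. Exonic lengths came from GENCODE M21. Floors are 3 counts per library (0.105 to 0.187 CPM) and cover counting error only, since reads carried no molecular identifiers.

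The members and lists were chosen with earlier results of these data known. All 8 members are named in every contrast. Of each list, the 3 genes with the largest change past the threshold in the LPS response in WT, and the 3 in the KO label under LPS, are named. Alternatives were RLE, upper-quartile or no scaling beyond library totals; no filter, or a minimum of 10 counts throughout; DESeq2 1.42.0; a fit to the 2 groups compared; a replicate block; a fit without each library in turn; and the longest transcript as length.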

Additional observations from a re-analysis of the deposited data

Results flagged for a closer look

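For 6 of the 8 genes the LPS response differed between the labels by the interaction test of edgeR's quasi-likelihood model, which is what set them aside here. All 6 were called toward a larger rise in KO-labelled cells, as were 9.78% of all genes tested, with 8.26% called the other way. The differences, KO-labelled minus WT on the log2 scale, were 0.67 for Ddx58, 0.62 for Ifih1, 0.71 for Dhx58, 0.99 for Zbp1, 0.32 for Trim25 and 0.48 for Ikbke, with adjusted p from 0.000416 for Ikbke to 0.0403 for Trim25. The Trim25 difference passed in 7 of 19 alternative fits (0.18 to 0.39) and that of Zbp1 in 17 of 19, one loss being without KO PBS replicate 2 (0.87, adjusted p = 0.0578) and the other with no filter (0.99, adjusted p = 0.0512). The summed fibroblast markers were lower in every KO-labelled library than in any WT library of the same treatment (57.0 to 69.5 against 118 to 132 CPM with LPS), and their part in these differences was not tested.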

How the results depend on the processing

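Over 20 alternative fits for each gene and contrast (19 for the interaction), 735 of 792 values kept both direction and call, 39 lost the call, 9 gained it and 9 changed sign. The LPS responses changed in none of 160 values per label. With PBS, the count of members higher under the KO label was 1 in place of 0 with RLE scaling, library totals alone, DESeq2 and only the libraries compared, and 0 to 1 when a library was left out. The count of members lower was 3 in place of 5 with library totals alone and with only the libraries compared, 4 with RLE scaling, DESeq2 and no filter, and 2 to 5 when a library was left out. With LPS, 3 to 5 members were higher when a library was left out, and 4 to 7 for the interaction. Signs changed only for uncalled values: Ifih1 with PBS was -0.010 with upper-quartile scaling and -0.071 to 0.12 with a library left out; Mavs with LPS was -0.032 with upper-quartile scaling, -0.053 with library totals alone and -0.010 to 0.125 with a library left out; Ikbke with LPS was -0.036 to 0.020 with a library left out. The causes were not tested.

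Scaling by library totals alone moved the median of all genes by -0.66 in the LPS response in WT, -0.80 in KO-labelled cells and -0.14 in the interaction, and upper-quartile scaling by -0.31 and -0.36 in the LPS responses; the share of higher calls then fell from 47.6% to 21.2% and 32.5% in WT, from 48.6% to 20.8% and 33.8% in KO-labelled cells, from 53.4% to 37.9% and 41.6% for the label with LPS, and from 54.2% to 24.4% and 43.1% for the interaction, while library totals alone raised it from 48.6% to 61.6% for the label with PBS. With these scalings the LPS responses of the members kept their directions. With the replicate block, the counts of members were 7 higher and 1 lower for each LPS response, 0 and 5 for the label with PBS, 4 and 0 with LPS, and 6 and 0 for the interaction, and no call changed. The numbers are not a known pairing: 1 of 18 same-numbered pairs of libraries had a correlation of deviations over 0.1 (-0.08 to 0.13). Per-length levels in WT LPS rose by more than the replicate spread with the longest transcript for Ddx58 (216 CPM per kb), Ifih1 (168), Dhx58 (168), Tbk1 (50.6) and Ikbke (87.4). Groups of 3 libraries limit the precision, and the lowest count of a member in any library was 210, for Mavs.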
